A study of Homo sapiens with 9 samples.

Results

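The 7 genes described here encode proteins of the epithelial cell surface and of the vesicle routes that supply it: EPCAM, LSR, CRB3, AP1M2, RAB25, MAL2 and BSPRY. They were taken as a named list with no cutoff on a measured value, and stand for 7 of 58237 genes in the table. The list was chosen with earlier results of these data known, so the counts below describe the 7 and are not a blind test. All 7 passed the filter on low counts that left 18205 genes for testing. RNA-seq was made of total RNA from H358, an established human lung cancer line (non-small cell) kept in RPMI with fetal bovine serum. There were 3 groups of 3 libraries: H358 with a CRISPR knockout of BRG1 (BRG1_KO), H358 with a CRISPR knockout of BRM (BRM_KO), and unedited H358 (Parental). BRG1, encoded by SMARCA4, and BRM, encoded by SMARCA2, are the alternative ATPases of the SWI/SNF chromatin remodelling complexes. The labels do not tell whether a knockout line is a clone or a pool, or whether replicates are separate cultures. Each p-value therefore rests on the scatter among the libraries at hand, which may be technical. The Parental line is the only control, and effects of editing or of clonal history cannot be told apart from those of the lost gene.

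In a polarised epithelium, junctions divide the plasma membrane into an apical face, towards the lumen, and a basolateral face, towards neighbours and matrix. Sorting adaptors at the trans-Golgi network and recycling endosomes, small GTPases of the RAB11 family and raft-associated carrier proteins send cargo to one face or the other. The Crumbs complex marks the apical face. Loss of such genes is part of what is called an epithelial to mesenchymal transition, in which repressors of the ZEB and SNAI families bind E-box sequences in the promoters of epithelial genes and GRHL2 acts on many of the same genes as an activator.

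The libraries held 31969961 to 40679073 estimated reads. SMARCA4 fell in BRG1_KO libraries, with 23.9, 21.2 and 23.6 CPM (counts scaled to the library total with a TMM factor) against 244, 216 and 212 CPM in Parental libraries. SMARCA2 was at 10.3, 12.0 and 9.36 CPM in BRM_KO libraries against 49.3, 58.0 and 55.5 CPM in Parental libraries. The epithelial markers checked (KRT7, KRT8, KRT18, KRT19, CDH1, CLDN4) summed to 5619 to 6981 CPM in BRM_KO libraries and 6122 to 6275 CPM in Parental libraries. In BRG1_KO libraries they summed to 433 to 1293 CPM. BRG1_KO libraries differed among themselves. For most of the 7 genes replicate 3 stood apart as the lowest, and values of the 7 without it are given below. In the share of reads from ribosomal protein genes, replicates 1 and 2 stood apart, at 9.57% and 10.13%, while replicate 3 held 5.42%, BRM_KO libraries 5.89% to 5.94% and Parental libraries 4.57% to 5.36%.

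The promoters of members with an entry in the RefSeq promoter table (GRCh38.p14; 5 of the 7) were searched on both strands for the E-box CACCTG, the sequence that ZEB and SNAI proteins recognise, whose reverse complement is CAGGTG. The entry of LSR begins downstream of the starts of its most abundant transcripts, so LSR is left out of the counts below. Its window held 0 matches to CACCTG. No such check of starts was made for the background of all promoters given below. The 250 bases before the annotated start of CRB3, AP1M2 and RAB25 are printed, read 5′ to 3′ along the gene's strand, because they hold a whole match. The same stretches of LSR and BSPRY held 0 whole matches and are not printed. Capitals mark CACCTG or CAGGTG. CRB3 lies at chr19:6464021-6464270 on the plus strand, AP1M2 at chr19:10587313-10587562 on the minus strand and RAB25 at chr1:156060910-156061159 on the plus strand.
CRB3: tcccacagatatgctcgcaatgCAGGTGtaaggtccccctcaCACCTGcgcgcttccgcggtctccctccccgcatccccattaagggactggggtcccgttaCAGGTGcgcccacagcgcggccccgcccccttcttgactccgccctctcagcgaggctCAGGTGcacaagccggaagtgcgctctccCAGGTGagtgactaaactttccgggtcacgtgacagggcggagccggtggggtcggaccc
AP1M2: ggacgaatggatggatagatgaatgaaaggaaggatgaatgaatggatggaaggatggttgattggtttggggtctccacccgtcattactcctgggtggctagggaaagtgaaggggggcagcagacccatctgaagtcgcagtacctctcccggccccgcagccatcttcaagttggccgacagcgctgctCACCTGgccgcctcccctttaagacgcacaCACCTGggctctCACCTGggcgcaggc
RAB25: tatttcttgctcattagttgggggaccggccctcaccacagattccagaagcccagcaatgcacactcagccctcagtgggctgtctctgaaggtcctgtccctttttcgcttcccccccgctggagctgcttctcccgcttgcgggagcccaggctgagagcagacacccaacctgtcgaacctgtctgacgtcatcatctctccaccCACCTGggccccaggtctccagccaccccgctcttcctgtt
CRB3 held 5 matches, beginning 228, 208, 147, 89 and 60 bases before the start. AP1M2 held 3, all within 57 bases of the start, and RAB25 held 1 at 41 bases, with 1 more 38 bases past the start. BSPRY had 1 match directly at the start and 1 at 9 bases past it. Over all 35116 promoters in the table, windows of the same 300 bases held at least 1 match in 20.6%, at least 2 in 3.49% and at least 3 in 0.635%. The E-box variant CAGGTA, the GRHL-type sequence AACCGGTT and the FOS and JUN sequence TGANTCA, searched in the same windows of CRB3, AP1M2, RAB25 and BSPRY, had no match, and 9.83%, 0.134% and 7.71% of all promoters held them. The ETS-type sequence CCGGAAG had 1 match, in CRB3, and was in 10.3% of all promoters. A match is a run of letters and not a bound site, since no binding was measured here.

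Loss of BRG1 went with lower RNA of every one of the 7 genes. EPCAM, CRB3, AP1M2, RAB25, MAL2 and BSPRY were left at between 5.68% and 20.2% of the Parental mean in BRG1_KO replicates 1 and 2, while LSR kept 47.8% and 51.5%. In BRG1_KO replicate 3 the same 6 genes held at most 1.63% of the Parental mean, and 5 of them had 0 to 2 reads. All 7 were called lower in BRG1_KO than in Parental by edgeR's quasi-likelihood test (adjusted p from 0.00022 to 0.016), where 21.9% of the genes tested were called lower and 21.6% higher. The 3 BRG1_KO libraries lay below all 3 Parental libraries for all 7 genes, against 27.1% of genes tested. The median log2 fold change of the 7 was -4.23, beside -0.01 over all genes tested. In a bulk sample, fewer cells that express a gene and less RNA of it per cell cannot be told apart.

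**Figure D1:**
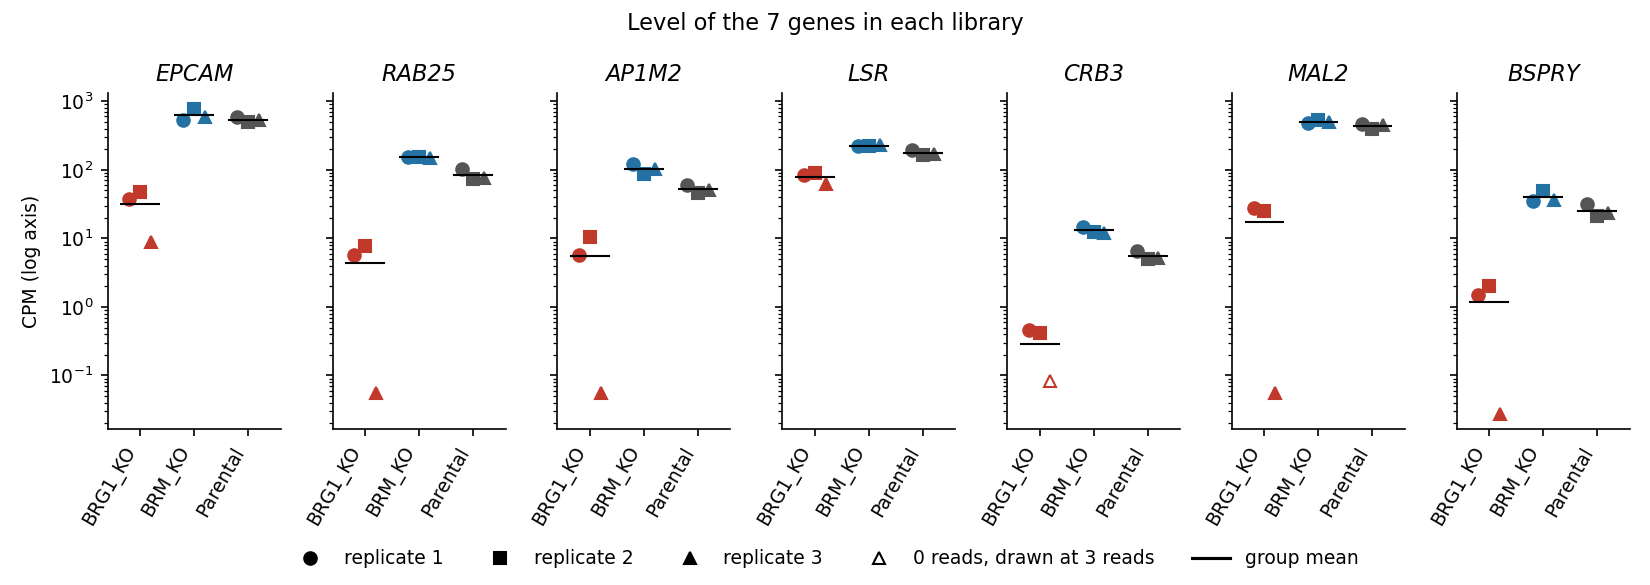
CPM of the 7 genes in each of the 9 libraries, on a log axis, with replicates as separate symbols and a bar at the group mean; an open symbol marks a library with 0 reads, drawn at 3 reads. Every BRG1_KO library lies below every Parental library, and BRG1_KO replicate 3 is the lowest library in all 7 panels.

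Among the surface proteins, EPCAM encodes a homophilic adhesion molecule of simple epithelia that is also widely used as a carcinoma marker (chr2:47345158-47387601, plus strand, GENCODE 29 on hg38). It had 38.1, 47.6 and 8.77 CPM in the BRG1_KO libraries, 532, 777 and 592 CPM in the BRM_KO libraries, and 584, 502 and 525 CPM in the Parental libraries. BRG1_KO libraries were thus all far below the rest, while BRM_KO and Parental libraries overlapped. The log2 fold change in BRG1_KO against Parental was -4.09 ± 0.52 (SE), with an adjusted p of 0.00022 by edgeR. EPCAM remained measurable in BRG1_KO replicate 3, with 317 reads.

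LSR encodes the lipolysis-stimulated lipoprotein receptor, also called angulin-1, which recruits tricellulin to the corners where epithelial cells meet (chr19:35248330-35267964, plus strand). It had 84.3, 90.8 and 61.2 CPM in the BRG1_KO libraries, 221, 221 and 234 CPM in the BRM_KO libraries, and 192, 165 and 172 CPM in the Parental libraries. The groups did not overlap, and LSR was the member with the smallest fall. Its log2 fold change in BRG1_KO against Parental was -1.16 ± 0.16 (SE), with an adjusted p of 0.00027 by edgeR. Its 95% interval, from -1.52 to -0.80, did not reach the intervals of EPCAM, RAB25, CRB3, MAL2 or BSPRY, and it met that of AP1M2, which ran from -5.29 to -1.24. Differences between members were not tested.

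CRB3 encodes the small transmembrane Crumbs protein of most epithelia, which anchors the apical polarity complex (chr19:6463777-6467221, plus strand). It had 16, 16 and 0 reads in the BRG1_KO libraries, or 0.455, 0.421 and 0 CPM, against 14.8, 12.4 and 11.9 CPM in the BRM_KO libraries and 6.54, 5.01 and 5.13 CPM in the Parental libraries. All BRG1_KO libraries were below all others, and the 0 in BRG1_KO replicate 3 allows up to 1.49% of the Parental mean (3 reads). The log2 fold change in BRG1_KO against Parental was -4.23 ± 0.61 (SE), with an adjusted p of 0.00033 by edgeR. CRB3 shares 1427 bases with SLC25A23 on the opposite strand, and the strand setting of the quantification is not known here, so its values are uncertain. SLC25A23 had 2839, 3174 and 2897 reads in BRG1_KO libraries, 3378, 2776 and 3611 in BRM_KO libraries, and 1926, 1406 and 1492 in Parental libraries. DENND1C, which shares 15 bases on the opposite strand, had 142, 104 and 58, then 527, 457 and 581, then 191, 95 and 161 reads in the same order. What reads of these neighbours add to CRB3 was not tested.

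AP1M2 encodes mu1B, the epithelial medium subunit of the AP-1 clathrin adaptor, which sorts basolateral cargo at recycling endosomes (chr19:10572671-10587315, minus strand). It had 5.68, 10.6 and 0.0553 CPM in the BRG1_KO libraries, 122, 87.1 and 103 CPM in the BRM_KO libraries, and 60.9, 45.6 and 51.2 CPM in the Parental libraries. The 3 groups did not overlap, and BRG1_KO replicate 3 held 2 reads. The log2 fold change in BRG1_KO against Parental was -3.26 ± 0.90 (SE), with an adjusted p of 0.016 by edgeR, the highest of the 7. That call was lost with no filter on low counts (log2 fold change -3.34, adjusted p 0.08 by edgeR) and without BRG1_KO replicate 1 (-3.34, adjusted p 0.058 by edgeR). AP1M2 lies 373.5 kb from SMARCA4, the edited gene, and a local effect of the edit was not tested.

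RAB25, also named RAB11C, encodes the epithelial member of the RAB11 GTPases of the apical recycling endosome (chr1:156061160-156070514, plus strand). It had 5.63, 7.63 and 0.0553 CPM in the BRG1_KO libraries, 154, 152 and 150.2 CPM in the BRM_KO libraries, and 104, 73.8 and 75.7 CPM in the Parental libraries. The groups were fully separate, with BRG1_KO lowest and BRM_KO highest. The log2 fold change in BRG1_KO against Parental was -4.25 ± 0.88 (SE), with an adjusted p of 0.0039 by edgeR.

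MAL2 encodes a tetraspanning raft protein needed for transcytosis of cargo to the apical face in hepatocytes (chr8:119165034-119245673, plus strand). It had 27.8, 24.8 and 0.0553 CPM in the BRG1_KO libraries, 482, 534 and 491 CPM in the BRM_KO libraries, and 462, 400.3 and 444 CPM in the Parental libraries. All BRG1_KO libraries lay far below the rest, and BRG1_KO replicate 3 held 2 reads. The log2 fold change in BRG1_KO against Parental was -4.63 ± 1.14 (SE), with an adjusted p of 0.0092 by edgeR, and the call was lost with no filter on low counts (-4.72, adjusted p 0.055 by edgeR).

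BSPRY encodes a B-box and SPRY domain protein described as a partner of the epithelial calcium channel TRPV5 (chr9:113349541-113371233, plus strand). It had 1.48, 2.05 and 0.0277 CPM in the BRG1_KO libraries, 35.4, 49.1 and 36.1 CPM in the BRM_KO libraries, and 32.2, 21.0 and 23.1 CPM in the Parental libraries. All BRG1_KO libraries lay below all others, and all BRM_KO libraries above all Parental libraries. The log2 fold change in BRG1_KO against Parental was -4.41 ± 0.72 (SE), with an adjusted p of 0.001 by edgeR. Neither TRPV5 nor its relative TRPV6 passed the filter on low counts.

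**Figure D2:**
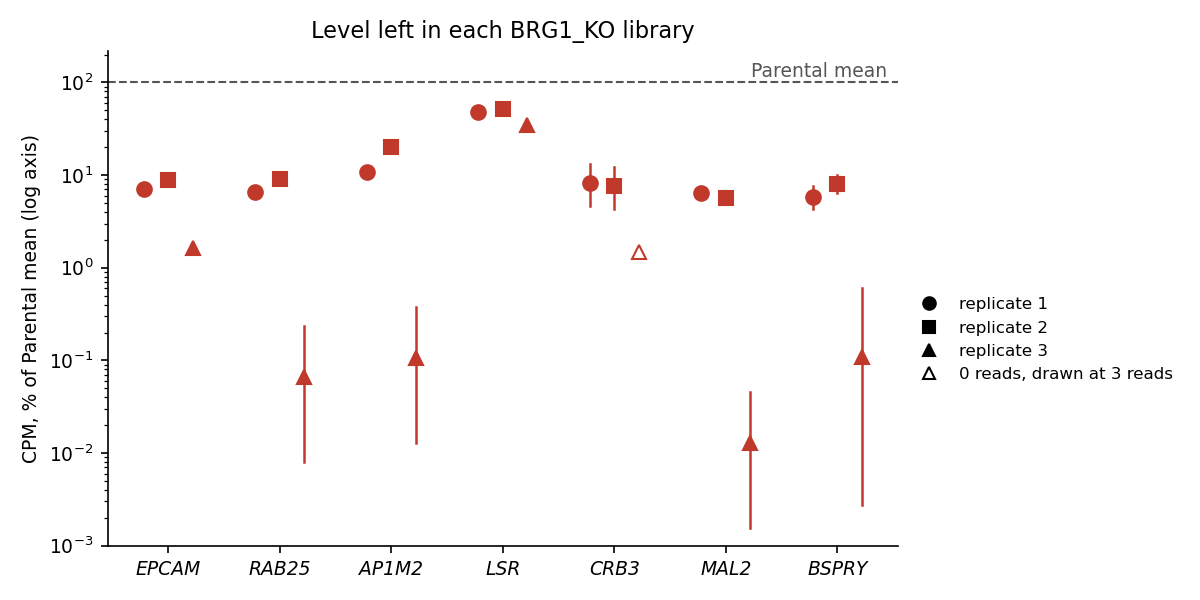
CPM of each gene in each BRG1_KO library as a percentage of the Parental mean, on a log axis, with exact Poisson 95% intervals that cover counting error of that library only; the open symbol is CRB3 in replicate 3, with 0 reads, drawn at 3 reads. Replicates 1 and 2 lie between 5.68% and 51.5%, and replicate 3 lies lower for every gene, least so for LSR at 34.7%.

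The depth of the loss differed among the BRG1_KO libraries. In replicate 3, RAB25 was at 0.0654% of the Parental mean, with an exact Poisson 95% interval of 0.00792% to 0.236% that covers counting error only, whereas replicates 1 and 2 held 6.65% and 9.02%. For 6 of the 7 genes replicate 3 was at least 4-fold below the lower of replicates 1 and 2 (replicate 3 taken as 3 reads where it had fewer), the exception being LSR. Among the 11375 tested genes with a Parental mean of at least 5 CPM, 1.19% showed such a gap. The fold and the minimum were set after the values had been seen, and the counts are a description. Without replicate 3 all 7 genes were still called lower by edgeR, with log2 fold changes from -4.12 (MAL2) to -1.08 (LSR). With replicate 3 as the only BRG1_KO library, assumed to vary like the other groups, they ran from -12.85 (MAL2) to -1.51 (LSR) and all 7 were again called. SMARCA4 itself did not separate the libraries, at 10.5% of the Parental mean in replicate 3 and 10.7% and 9.44% in replicates 1 and 2. SMARCA2 did differ among them, at 113% of the Parental mean in replicate 3 and 78.1% and 59.0% in replicates 1 and 2. NKX2-1, which encodes the lung lineage transcription factor TTF-1, had 1, 1 and 0 reads in the BRG1_KO libraries, against a Parental mean of 80.8 CPM. It was named here after its values were seen, and it was near 0 in all 3 BRG1_KO libraries alike.

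Markers of another cell type moved with the same group. Of the 7 tested fibroblast markers 5 were higher in BRG1_KO than in Parental, where 21.6% of genes tested were higher. The list summed to 396 to 1034 CPM in BRG1_KO libraries against 32.3 to 63.4 CPM in Parental libraries. None of the 7 was called lower. COL3A1, a fibrillar collagen gene, had 84.5, 109 and 739 CPM in BRG1_KO libraries and at most 1.32 CPM in Parental libraries. COL1A1, another collagen gene, had 249, 283 and 208 CPM in BRG1_KO libraries against 38.6, 23.7 and 23.2 CPM in Parental libraries. PDGFRB had 37.2, 24.8 and 72.7 CPM against 0.768, 0.365 and 0.525 CPM. COL1A2 averaged 0.634 CPM in BRG1_KO libraries and 0.878 CPM in Parental libraries, and LUM 12.7 and 12.2 CPM. The blood cell markers summed to at most 2.03 CPM in BRG1_KO libraries and 2.67 CPM in Parental libraries, and 1 of 4 tested was lower. Of 5 endothelial markers none passed edgeR's test in BRG1_KO against Parental. In BRM_KO 2 of them were higher, KDR and VWF. KDR, which encodes a VEGF receptor, made up most of the list's sum, with 72.5, 43.7 and 53.4 CPM in BRM_KO libraries against 6.02, 3.94 and 3.70 CPM in Parental libraries. No epithelial or blood cell marker passed in BRM_KO against Parental, and 1 fibroblast marker was higher and 1 lower. No marker of these lists was at 0 in all libraries. The part of these markers in the values of the 7 genes was not tested.

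After loss of BRM, 6 of the 7 genes had higher CPM in all BRM_KO libraries than in all Parental libraries, as did 32.1% of genes tested, and EPCAM overlapped. None of the 7 was called in either direction by edgeR in the fit of all 9 libraries, where 21.0% of genes tested were called higher and 16.4% lower. The log2 fold changes were all positive, from 0.21 (MAL2) to 1.23 (CRB3), with a median of 0.66 beside 0.09 over all genes tested, and MAL2 turned to -0.02 under effective length offsets. CRB3 alone had an unadjusted p under 0.05 in that fit (0.03, adjusted p 0.072 by edgeR). Its opposite-strand neighbour SLC25A23 also had more reads in BRM_KO than in Parental libraries, as given above, so the CRB3 values are uncertain here too. This comparison shares its Parental libraries with that of BRG1_KO.

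These calls differed with the BRG1_KO libraries that were in the fit. In the fit of all 9 libraries the 3 groups share 1 estimate of the spread, so scatter among BRG1_KO libraries enters the BRM_KO p-values. That fit gave AP1M2 a log2 fold change of 0.98 (adjusted p 0.38 by edgeR), RAB25 0.84 (0.42) and BSPRY 0.66 (0.42). How much of the difference in calls comes from the shared estimate was not tested. Without BRG1_KO replicate 3, 4 of the 7 genes were called higher in BRM_KO by edgeR: CRB3 (log2 fold change 1.14, adjusted p 0.001), AP1M2 (0.90, 0.0083), RAB25 (0.76, 0.0033) and BSPRY (0.57, 0.038). The fit of only the 6 BRM_KO and Parental libraries also called 4. DESeq2 and limma voom on all 9 libraries each called 1, CRB3 (adjusted p 0.0052 with DESeq2 and 0.019 with limma voom). EPCAM, LSR and MAL2 were not called in any of these fits. In percent of the Parental mean, the 3 BRM_KO libraries held 182%, 179% and 178% for RAB25 and 233%, 166% and 195% for AP1M2. For CRB3 they held 266%, 223% and 214%, and for EPCAM 99.2%, 145% and 110.3%.

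**Figure D3:**
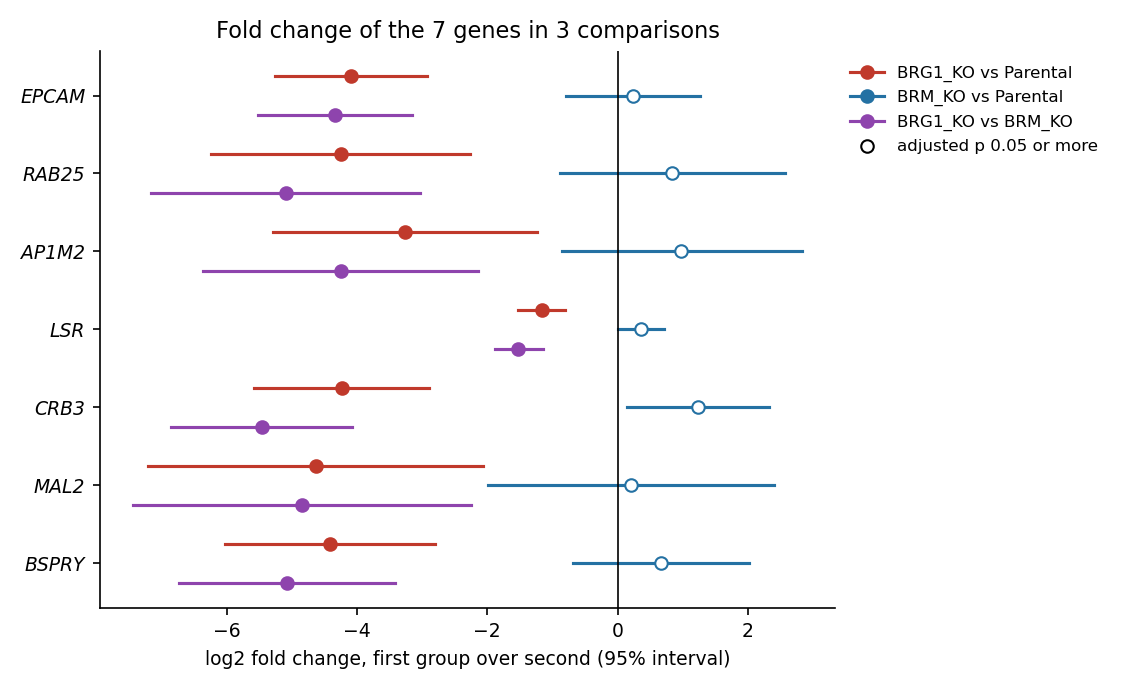
Log2 fold change of each gene with its 95% interval in the fit of all 9 libraries, for BRG1_KO over Parental, BRM_KO over Parental and BRG1_KO over BRM_KO; open circles have an adjusted p of 0.05 or more. The BRG1_KO comparisons lie left of 0 for all 7 genes and the BRM_KO intervals of all genes but CRB3 include 0.

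Set against each other, the knockouts of the paired ATPases differed for every member. All 7 genes were lower in BRG1_KO than in BRM_KO by edgeR, with log2 fold changes from -5.46 ± 0.63 (SE, CRB3) to -1.52 ± 0.17 (SE, LSR) and adjusted p from 4e-05 to 0.0075, where 23.8% of genes tested were called lower. The groups did not overlap for any of the 7, against 28.6% of genes tested with BRG1_KO lower. In CPM the order of the libraries was the same for 6 genes, with all BRG1_KO below all Parental and all Parental below all BRM_KO. EPCAM differed only in that BRM_KO and Parental libraries were mixed. In TPM, which are scaled by transcript length, MAL2 was mixed too, with 279, 309 and 264 in BRM_KO libraries and 286, 269 and 305 in Parental libraries.

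Levels can be compared between genes only per length. In TPM, the Parental means ± SD (n = 3) ran in the order EPCAM 524 ± 23.9, MAL2 287 ± 18.2, RAB25 159 ± 19.4, LSR 152 ± 5.45, AP1M2 54.9 ± 5.78, BSPRY 17.3 ± 3.49 and CRB3 12.7 ± 1.85. RAB25 and LSR overlapped in that order, as did BSPRY and CRB3. In BRG1_KO cells LSR led instead, at 56.3 ± 4.21 TPM, ahead of EPCAM at 25.6 ± 14.8 TPM (SD, n = 3), and each other member averaged at most 8.04 TPM.

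The transcripts of a gene were also read as shares of its TPM. EPCAM-201, which encodes the 314-residue protein, carried at least 97.0% of EPCAM TPM in BRG1_KO libraries, 98.2% to 99.2% in BRM_KO libraries and 98.2% to 99.1% in Parental libraries. MAL2-204, the long form with 176 residues, carried at least 98.6% of MAL2 TPM in BRG1_KO libraries, 90.8% to 97.0% in BRM_KO libraries and 77.8% to 84.0% in Parental libraries. The 3 groups did not overlap in that share, though 2 reads make up the value of BRG1_KO replicate 3. The other MAL2 transcripts have a coding frame of 108 residues. CRB3-202, with 123 residues where the other CRB3 transcripts have 120, carried 37.2% to 43.9% in BRM_KO libraries and 45.6% to 58.3% in Parental libraries, and in BRG1_KO the CRB3 reads were too few for a share. These shares are given as a description, with no test.

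The partners of each member were read next, beginning with EPCAM. Over all genes tested, 21.9% were lower and 21.6% higher in BRG1_KO than in Parental. In BRM_KO against Parental, 16.4% were lower and 21.0% higher. Every list count below is to be read beside these shares. All 8 genes of the list of EpCAM partners and relatives were lower in BRG1_KO than in Parental by edgeR, with a median log2 fold change of -3.14. The largest falls were in ST14 (log2 fold change -4.21), which encodes the protease matriptase, CLDN7 (-4.14), a claudin that binds EpCAM, and TSPAN8 (-3.48), a tetraspanin. All 8 were called again without BRG1_KO replicate 3. Of the 9 genes for cleavage and signalling of EpCAM, 2 were called, both higher, where 21.6% of genes tested were higher. Without BRG1_KO replicate 3, 1 was higher and 2 lower. The 2 called in the main fit were NCSTN (1.03), a subunit of gamma-secretase, and ADAM10 (0.65), a sheddase. ADAM10 kept its call in 8 of 20 other settings and lost it without BRG1_KO replicate 3 (0.23, adjusted p 0.21 by edgeR). In BRM_KO against Parental, 2 of the 8 partners were higher and 1 lower. TSPAN8 fell (-3.14) and CD9, a tetraspanin, rose (1.13). Of the 9 cleavage genes, 2 were higher and 2 lower, among them FHL2 (1.48), a cofactor of the cleaved EpCAM tail, and BACE1 (-0.98), a protease.

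At the tricellular junction, where LSR acts, 3 of 5 listed genes were lower in BRG1_KO than in Parental. They were ILDR1 (log2 fold change -3.09), which encodes the related angulin-2, MARVELD2 (-2.97), which encodes tricellulin, and OCLN (-2.10), which encodes occludin. Without BRG1_KO replicate 3, 4 were lower. In BRM_KO against Parental, 2 of the 5 were higher, OCLN (1.29) and ILDR1 (0.77). ILDR1 kept that call in 6 of 19 other settings, and without Parental replicate 2 neither was called.

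Of the 20 tested genes of the Crumbs, PAR and Scribble complexes, 5 were lower and 3 higher in BRG1_KO than in Parental, with a median log2 fold change of -0.03, beside 21.9% lower and 21.6% higher over all genes tested. Without BRG1_KO replicate 3, 5 were lower and 2 higher. LLGL2 (-3.57), the epithelial lethal giant larvae homologue, and MPP7 (-3.11), a scaffold of the Crumbs group, fell most. PARD6G (1.63), a PAR6 isoform, rose and DLG3 (-1.47), a Discs large homologue, fell. PALS1, the direct scaffold of CRB3, was at 72.2 CPM in BRG1_KO and 46.6 CPM in Parental (0.63, adjusted p 0.025 by edgeR), a call lost without BRG1_KO replicate 3 (0.30, adjusted p 0.11 by edgeR). In BRM_KO, 8 of the 20 were higher than in Parental and none was lower, and 5 were higher without Parental replicate 3. PRKCZ (2.36), an atypical protein kinase C, PARD6G (2.18) and PARD3B (2.06) rose most among those above the minimum level for naming.

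The AP-1 adaptor has a widely expressed medium subunit, mu1A, encoded by AP1M1, in the position that mu1B takes in epithelia. In TPM, AP1M1 averaged 45.9 ± 6.55 in BRG1_KO, 25.2 ± 3.07 in BRM_KO and 44.8 ± 6.17 in Parental libraries (SD, n = 3). AP1M1 did not pass the test in BRG1_KO against Parental (log2 fold change 0.31, adjusted p 0.11 by edgeR), and it fell in BRM_KO against Parental (-0.82, adjusted p 0.0019 by edgeR). AP1M2 as a share of the summed TPM of both medium subunits was 10.7%, 15.0% and 0.101% in BRG1_KO libraries, 83.2%, 74.8% and 80.9% in BRM_KO libraries, and 60.4%, 49.3% and 55.6% in Parental libraries. The groups did not overlap: mu1B transcripts made up about as much as mu1A in Parental cells, the larger share in BRM_KO cells and the smaller in BRG1_KO cells. Of the 7 other subunit genes, 3 were lower in BRG1_KO and none was higher. Without BRG1_KO replicate 3, 4 were lower. AP1S3 (-3.40), a small subunit, fell most, and AP1S2 (-0.75, adjusted p 0.044 by edgeR) kept its call in 9 of 20 other settings. In BRM_KO 2 were higher and 3 lower, among them AP1S2 (-2.08) and AP1G2 (1.22), a large subunit, and the count in either direction was 3 without any 1 of the BRM_KO libraries or of Parental replicates 2 and 3. The 4 cargo genes of the mu1B route were all lower in BRG1_KO, with or without replicate 3, among them CDH1 (-3.20), or E-cadherin, CXADR (-2.01), the coxsackie and adenovirus receptor, and TFRC (-1.19), the transferrin receptor. In BRM_KO against Parental, CXADR (-0.79) and TFRC (-0.97) were lower, 2 of the 4 genes.

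**Figure D4:**
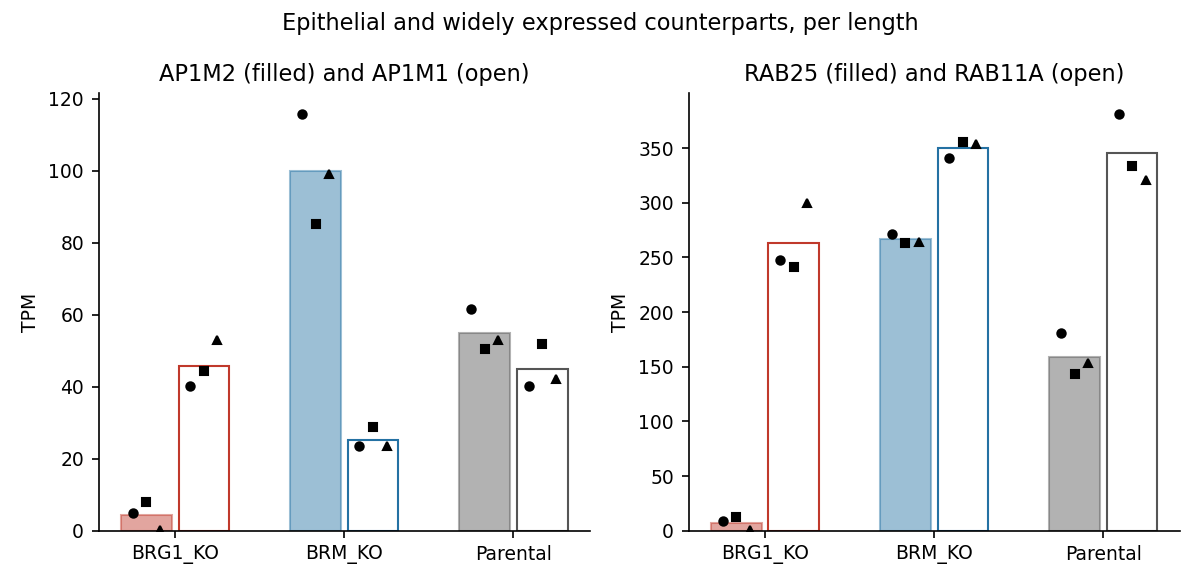
TPM of AP1M2 with AP1M1 and of RAB25 with RAB11A, filled and open bars at the group mean (n = 3) with each library as a point. In BRG1_KO AP1M2 averaged 4.23 TPM and RAB25 7.03 TPM, while AP1M1 averaged 45.9 TPM and RAB11A 263 TPM.

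RAB25 has widely expressed relatives in RAB11A and RAB11B. RAB11A averaged 263 ± 32.2 TPM in BRG1_KO, 350 ± 7.71 TPM in BRM_KO and 345 ± 31.6 TPM in Parental libraries (SD, n = 3). In TPM its BRG1_KO libraries (248, 241 and 300) lay below the Parental ones (381, 333 and 321). The test uses counts not scaled by length, in which RAB11A averaged 127 CPM in BRG1_KO and 133 CPM in Parental. RAB11A did not pass edgeR's test in BRG1_KO against Parental (log2 fold change -0.07, adjusted p 0.71). RAB11B averaged 87.7 ± 10.8 TPM in BRG1_KO against 40.1 ± 10.4 TPM in Parental libraries (SD, n = 3) and rose (1.34, adjusted p 0.00075 by edgeR). Of 15 genes of the RAB11 recycling machinery, 6 were lower and 3 higher in BRG1_KO, and 8 were lower and 3 higher without BRG1_KO replicate 3. MYO5B (-3.78), the motor that carries RAB11 vesicles, fell to 6.99, 7.73 and 0.719 CPM, against 86.3, 63.1 and 63.4 CPM in Parental libraries. RAB11FIP4 (-2.16), a RAB11 effector, and RAB17 (-2.11), an epithelial GTPase of recycling endosomes, fell too, and RAB3IP (-1.84), the exchange factor Rabin8 for RAB8, was lower as well. In BRM_KO against Parental, 6 of the 15 were higher and 1 lower. RAB11FIP1 (2.06), which encodes the Rab coupling protein, RAB11FIP4 (1.86), RAB17 (1.56) and RAB11FIP3 (1.35) rose most.

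Of 20 tested genes of the MAL family and of delivery to the apical membrane, 9 were lower and 2 higher in BRG1_KO than in Parental, and 11 were lower and 1 higher without BRG1_KO replicate 3. SYTL5 (-3.86), SYTL2 (-2.87) and SYTL1 (-2.23), synaptotagmin-like RAB27 effectors, fell, as did VAMP8 (-2.45), a SNARE of secretory granules. MALL, a MAL family relative, fell (-1.99) and had 12.8 ± 2.97 TPM in BRG1_KO and 63.4 ± 22.2 TPM in Parental libraries (SD, n = 3). Of the exocyst genes EXOC1 to EXOC8, whose products tether carriers to the membrane, EXOC6 (-1.56) and EXOC5 (-0.62) fell and EXOC3 (0.61) rose. In BRM_KO, 9 of the 20 were higher and none was lower, led by SYTL1 (2.63), SYTL5 (1.24), EXOC6B (1.01) and PLLP (1.00), which encodes plasmolipin, a MAL relative. That count was 5 without Parental replicate 2 and 5 without Parental replicate 3.

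**Figure D5:**
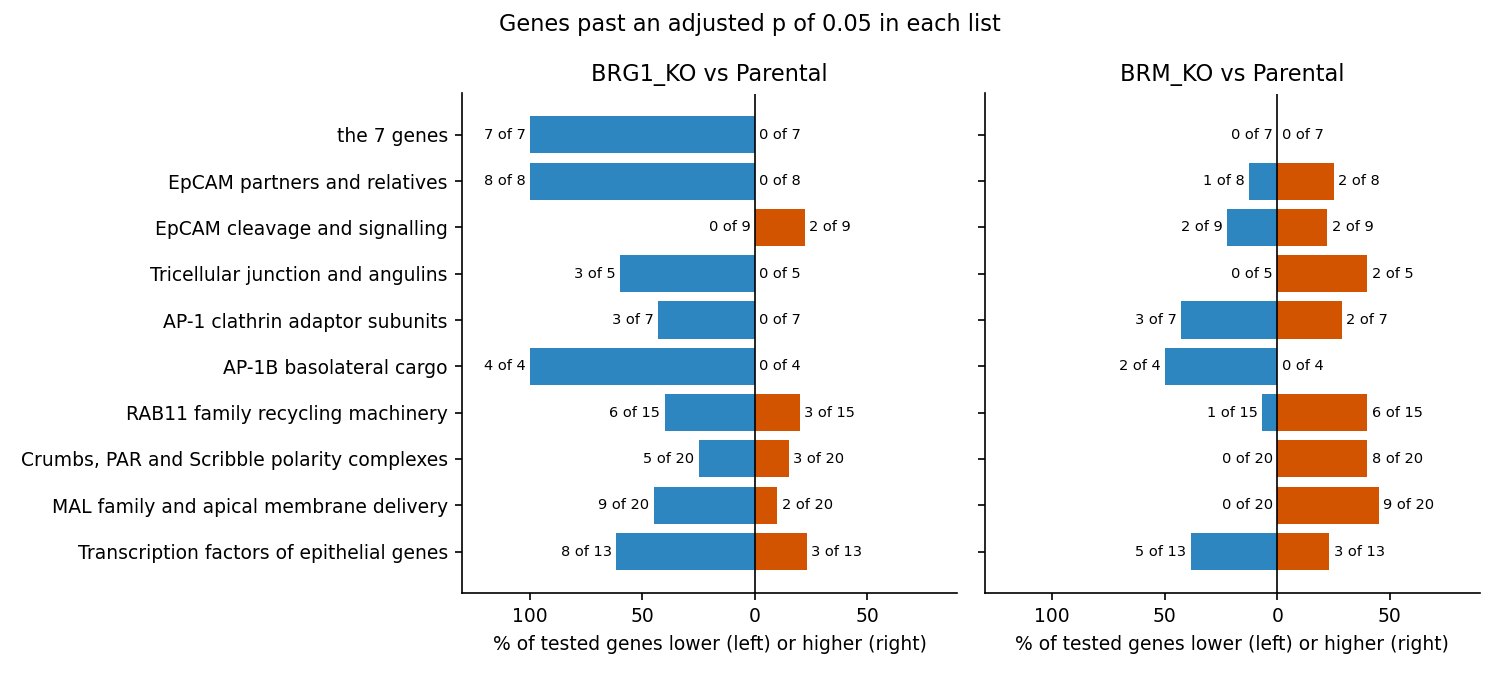
Share of the tested genes of each list with an adjusted p under 0.05 by edgeR, lower to the left and higher to the right, with the counts printed, for BRG1_KO against Parental and BRM_KO against Parental, which share the Parental libraries. All 7 genes and all 8 EpCAM partners are lower in BRG1_KO, and the polarity and apical delivery lists hold 8 and 9 higher genes in BRM_KO. Over all genes tested, 21.9% were lower and 21.6% higher in BRG1_KO, and 16.4% lower and 21.0% higher in BRM_KO.

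Of 13 tested transcription factors that act on epithelial genes, 8 were lower and 3 higher in BRG1_KO than in Parental, in the same numbers without BRG1_KO replicate 3. GRHL2 had 7.25, 7.92 and 0.111 CPM in BRG1_KO libraries, 131, 121 and 141 CPM in BRM_KO libraries, and 131, 132 and 145 CPM in Parental libraries. As for 5 of the 7 members, BRG1_KO replicate 3 was close to 0. The fall against Parental was -4.73 ± 0.88 on the log2 scale (SE, adjusted p 0.0021 by edgeR), while BRM_KO gave -0.05 (adjusted p 0.96 by edgeR). EHF (-7.65), an ETS factor of epithelia, and OVOL2 (-4.40), an antagonist of ZEB1, fell as well. ZEB1 had 28.6, 24.0 and 64.3 CPM in BRG1_KO libraries, 0.617, 1.51 and 1.14 CPM in BRM_KO libraries, and 5.77, 8.71 and 5.75 CPM in Parental libraries. The 3 groups did not overlap, in the reverse of the CPM order of 6 of the members, and BRG1_KO replicate 3 was the highest library. ZEB1 rose in BRG1_KO against Parental (2.53, adjusted p 0.00063 by edgeR) and fell in BRM_KO against Parental (-2.64, adjusted p 0.0012 by edgeR). SNAI1, which encodes Snail, rose in BRG1_KO (2.69) and fell in BRM_KO (-1.96), but in BRG1_KO its lowest library was replicate 3, at 69.6 CPM against 152 and 109 CPM. SNAI2, of the same family, had 32.6, 55.5 and 39.0 CPM in BRG1_KO libraries. It overlapped the Parental libraries, at 34.8, 64.9 and 50.5 CPM. The part of these factors in the values of the 7 genes was not tested. In BRM_KO 3 factors were higher and 5 lower than in Parental, among them GRHL1 (2.43) and ZEB2 (-2.69). The count called in either direction was 5 without Parental replicate 2 and 4 without Parental replicate 3.

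Over the 9 libraries, the protein-coding genes with log2 CPM most like the mean standardised profile of the 7, among 10800 genes with a mean of at least 10 CPM in 1 group, were CDH3 (Pearson r 0.9988), MYO5B (0.9982), MROH6 (0.9971), CDS1 (0.9971) and CLDN7 (0.9971). The values are a description across libraries that fall into genotype groups, so that any gene low in BRG1_KO, and lowest in replicate 3, scores high. CDH3, which encodes P-cadherin, had 31.4, 39.4 and 4.40 CPM in BRG1_KO libraries, 798, 732 and 899 CPM in BRM_KO libraries, and 469.8, 332 and 389 CPM in Parental libraries.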

How the data were processed

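RNA-seq of total RNA from 9 H358 libraries was analysed, 3 for each genotype as the labels give it. The deposited files hold Salmon estimated counts per transcript, not normalized, per the file headers. TPM is a deposited column of the same files. Salmon, DESeq2 and hg38 appear in the submitters' processing notes. Which versions, library type and strand were used is not given in these sources. Deposited effective lengths differed from transcript length by 1 constant per library for long transcripts.

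Estimated counts were summed per gene of GENCODE release 29, rounded and tested with edgeR 4.0.16 (R 4.3.3): TMM factors, filterByExpr, 1 mean per group, glmQLFit (robust) with 6 residual degrees of freedom, and the two-sided quasi-likelihood F test. P-values were Benjamini-Hochberg adjusted over 18205 genes, with a threshold of 0.05. The approximate SE divides a log2 fold change's size by the root of its F. CPM are TMM-scaled. Alternatives used DESeq2 1.42.0, limma voom 3.58.1, other scalings, filters and libraries. Replicates differed by more than sampling noise (chi-square per degree of freedom 10.7 to 189.6). The steps were tested on simulated data. Intervals and floors of reads cover counting error only, since reads are not independent molecules.

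The members, the lists and the tests were chosen with earlier results of these data known. Named genes are the 7, SMARCA4, SMARCA2, AP1M1, GRHL2 and ZEB1, up to 4 called genes per list with the largest change (mean log2 CPM of 1 or more in 1 of the groups), and the 5 genes most like the members. RAB11A, RAB11B, MALL, PALS1, SNAI2, the other genes named for a weak call or as exocyst subunits or markers, and NKX2-1 were added after their values were seen. Each list is described by counts, with no test of the list. Some listed genes that the rule names are not reported here.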

Additional observations from a re-analysis of the deposited data

How the results depend on the processing

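Over the 20 alternatives the 7 genes were called lower in BRG1_KO than in Parental in all fits except with no filter on low counts (5 called) and without BRG1_KO replicate 1 (6 called), and lower in BRG1_KO than in BRM_KO in all except with no filter (6 called, MAL2 lost at an adjusted p of 0.05 by edgeR). In BRM_KO against Parental 0 were called in the fit of all libraries, 1 by DESeq2, 1 by limma voom, 4 with only the 6 libraries, 4 with Parental replicate 1 and BRG1_KO replicate 3 both left out and 4 with BRG1_KO replicate 3 alone. Leaving out 1 library at a time gave 6 to 7 called genes for BRG1_KO against Parental, 0 to 4 for BRM_KO against Parental (4 without BRG1_KO replicate 3) and 7 to 7 for BRG1_KO against BRM_KO. MAL2 in BRM_KO against Parental turned to -0.02 under effective length offsets. The cause was not tested. Same-numbered libraries had correlations of deviations from the group mean of -0.121 to 0.259, and differently numbered ones of -0.25 to 0.174. With so few libraries per group, these values cannot tell whether same-numbered libraries share a culture or a batch. With the replicate block, 7, 0 and 7 genes were called in these comparisons in the same order, and no call among the 7 changed. Counts of pathway lists were recomputed under every setting, an addition chosen after seeing the data. The near-0 counts of BRG1_KO replicate 3 make its fold changes imprecise.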
